A study of Mus musculus with 20 samples.

Results

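The S100 proteins are small calcium-binding proteins of vertebrates, and the 10 genes described here are *S100b*, *S100a1*, *S100a4*, *S100a6*, *S100a8*, *S100a9*, *S100a10*, *S100a11*, *S100a13* and *S100a16*. They were taken by name from the 25655 genes of the deposited count tables, and were chosen by the read counts of *S100b*, which were lower in the OVX + E2 group than in the OVX + v group. That difference is therefore given below as a description without a p-value, and nothing is read from a test of it. RNA came from the utricle, a vestibular organ of the inner ear, of female C57BL/6J mice in 4 groups of 5 libraries, and was sequenced from the 3′ ends of mRNA. All mice were operated on at 8 weeks of age, received a subcutaneous pellet and were killed 4 weeks later. The sham + v group kept its ovaries and received a vehicle pellet, and the OVX + v group was ovariectomized (OVX) and received the same kind of pellet. The OVX + E2 group was ovariectomized and received a pellet of 50 µg of estradiol released over 60 days, and the OVX + RAL group was ovariectomized and received 2.4 mg of raloxifene, a selective estrogen receptor modulator, over 60 days. The groups were drawn for a study of hormone therapy and the otoconial layer after loss of estrogen. The labels do not say whether each library held the tissue of a separate mouse, so the p-values measure the spread between these libraries, which may be partly technical.

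S100 proteins mostly form dimers, and each subunit carries a pair of EF-hands, helix-loop-helix folds that hold a calcium ion in the loop. Binding of calcium exposes a surface that takes up target proteins, so that most members act as calcium sensors rather than enzymes, and several are also released and act on receptors such as RAGE. *S100b* is known as a marker of glia, Schwann cells and melanocytes. *S100a8* and *S100a9* form calprotectin, an abundant protein of neutrophils.

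The second EF-hand loop of each subunit is the canonical one, and its coding sequence shows how the members differ at the calcium site. The lines below give it for *S100a1* and *S100a13*, the most abundant members after *S100b*, and for *S100a10*, a member known to have lost calcium binding. Sequences are 5′ to 3′ on the coding strand, from the GENCODE vM39 transcripts on GRCm39. Capitals mark the codons of loop positions 1, 3, 5 and 12, which hold the calcium ion in a canonical loop.
S100a1: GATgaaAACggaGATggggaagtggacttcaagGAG
S100a13: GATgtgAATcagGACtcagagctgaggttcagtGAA
S100a10: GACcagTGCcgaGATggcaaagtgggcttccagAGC
The *S100a1* loop lies in exon 3 of 3 at chr3:90418591-90418626 on the minus strand. The *S100a13* loop lies in exon 2 of 2 at chr3:90431696-90431731 on the plus strand, and the *S100a10* loop in exon 3 of 3 at chr3:93471595-93471630 on the plus strand. An acidic residue is encoded by 3 of the 4 capital codons in *S100a1* and *S100a13* and by 2 in *S100a10*.

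*S100b* (ENSMUSG00000033208) stands alone on chromosome 10, from 76089687 to 76096993 of GRCm39. The 9 other members lie on chromosome 3, and 7 of them, from *S100a1* to *S100a9*, within 185 kb. *S100a1* (90418341 to 90421699, minus strand) and *S100a13* (90421742 to 90431888, plus strand) are 42 bases apart in the deposited tables, and in GENCODE vM39 their annotated spans overlap on opposite strands. *S100b* overlaps *Dip2a* on the opposite strand, which had 1448 counts over all 20 libraries, whereas *S100b* had 41986 counts or more in each group. *S100a4* shares its strand with *Gm42674*, which had 4 counts in all, and 52.1% of the windows of 63 nucleotides near the 3′ end of *S100a4* also occur in *Gm42674*. The counts of *S100a4* are uncertain to that extent. The other 9 members shared none of these windows with another gene.

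The libraries held 1123053 to 2081747 counts. The OVX + E2 libraries were the shallowest group, with 1123053 to 1507667 counts and 7427 to 9680 genes with a count, against 8651 to 10694 genes in the sham + v and OVX + v libraries. Counts were scaled to 1000000 per library (CPM) by these totals. Each mRNA gives reads from its 3′ end alone, so that CPM was taken here as a level that does not grow with transcript length and was compared between genes. A count of 3, the smallest taken as detected, was 1.44 CPM in the largest library and 2.67 CPM in the smallest. All 14 listed hair cell genes and all 13 listed supporting cell genes were counted, with summed levels of 1156 to 2416 CPM and 3433 to 6502 CPM per library. Libraries 16 and 17 of the OVX + RAL group and library 1 of the sham + v group stood apart in *S100b*, and results that rest on them are given with and without them.

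*S100b* was one of the most abundant mRNAs of the utricle. Its mean level over the 20 libraries was 8682 ± 4194 CPM (SD, n = 20), rank 11 among all genes, and it ranked between 4 and 11 in the 4 groups. It made up 64.3% to 90.8% of the summed CPM of the 10 members, with a mean of 74.4% ± 7.37 (SD, n = 20). Without libraries 16 and 17 the mean level was 7447 ± 1876 CPM (SD, n = 18), rank 12, the rank in the OVX + RAL group went from 4 to 11, and the share ran from 64.3% to 79.7%. *S100a1*, a member best known from heart and muscle where it binds the ryanodine receptor and the calcium pump, came next with 1846 ± 317 CPM (SD, n = 20), rank 37. These 2 genes were ordered in the same way in 20 of 20 libraries, and *S100a1* was above *S100a13* in 20 of 20.

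Below them, 5 members were counted in every library at lower levels, in an order that was not firm. *S100a13*, which takes part in the release of FGF1 from cells, had 262 ± 81.8 CPM (SD, n = 20) and exceeded *S100a11* in 14 of 20 libraries. *S100a11*, a partner of annexin A1, had 165 ± 58.3 CPM (SD, n = 20). *S100a6*, known as calcyclin, had 163 ± 74.2 CPM (SD, n = 20), and *S100a11* was above it in 11 of 20 libraries, so that these neighbours did not differ beyond their spread. *S100a16*, a broadly expressed member with weak calcium binding, had 108 ± 43.3 CPM (SD, n = 20). *S100a10*, the partner of annexin A2, had 79.4 ± 44.1 CPM (SD, n = 20), below *S100a16* in 15 of 20 libraries. Its counts ranged from 4 to 294. *S100a4*, *S100a8* and *S100a9* were at 0 in 12, 12 and 16 of the 20 libraries.

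Counting error was small beside the spread between libraries for the abundant members. It was 0.512% to 1.3% of the level for *S100b*, 1.48% to 2.38% for *S100a1* and 3.42% to 8.7% for *S100a13*. For *S100a10* it reached 50% in the library with 4 counts. Reads were counted without molecular identifiers, so these errors cover counting alone.

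Across the groups, *S100b* was most even in the OVX + v group and most scattered in the OVX + RAL group. In the OVX + v libraries 6 to 10 it had 9852, 9158, 9012, 10189 and 7497 CPM. In the OVX + E2 libraries 11 to 15 it had 7937, 6870, 5342, 5300 and 5827 CPM. In the sham + v libraries 1 to 5 it had 11427, 5858, 5463, 6306 and 7647 CPM, of which library 1 stood well above the other four. In the OVX + RAL libraries 16 to 20 it had 19637, 19944, 8408, 6171 and 5789 CPM. Libraries 16 and 17 were the highest of all 20, and the lower of them was 1.72-fold above the next library, sham + v library 1. The other 3 OVX + RAL libraries had 6790 ± 1415 CPM (SD, n = 3). On the log2 scale the SD within a group was 0.172 in OVX + v, 0.252 in OVX + E2, 0.428 in sham + v and 0.88 in OVX + RAL (n = 5 each). The summed level of the other 9 members was 2945 ± 296 CPM in sham + v, 2566 ± 335 CPM in OVX + v, 2528 ± 332 CPM in OVX + E2 and 2574 ± 499 CPM in OVX + RAL (SD, n = 5 each). As a share of the mean, its SD was 10% in sham + v and 19.4% in OVX + RAL, against 33.1% and 60% for *S100b*. In OVX + v the order was the other way, with 13.1% for the other members and 11.4% for *S100b*.

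**Figure D1:**
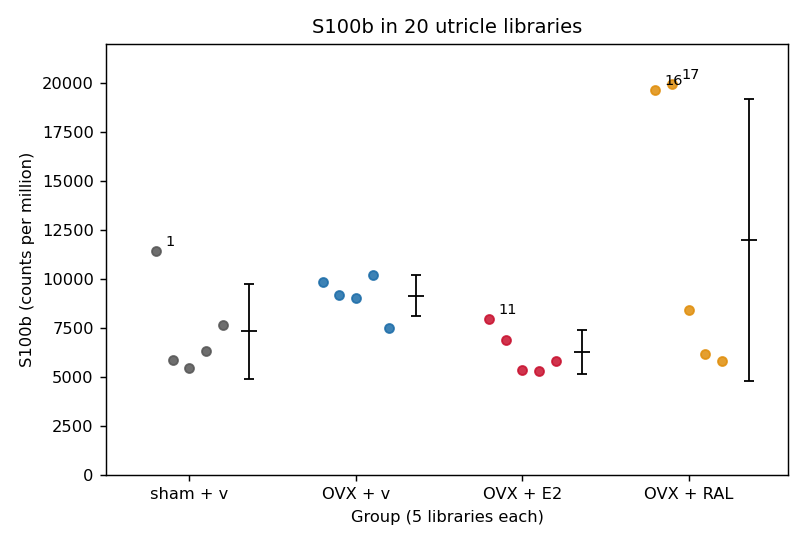
*S100b* in CPM (vertical axis, linear from 0) in each of the 20 libraries, by group. Points are libraries in the order of their numbers and black bars are the mean ± SD of 5 libraries, with libraries 1, 11, 16 and 17 numbered. Libraries 16 and 17 lie at 19637 and 19944 CPM, above every other library, and the OVX + v libraries form the tightest group.

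In the comparison by which the family was chosen, OVX + E2 against OVX + v, the mean of *S100b* was 6255 ± 1133 CPM against 9141 ± 1039 CPM (SD, n = 5 each), a ratio of 0.684. Of the 5 OVX + E2 libraries, 4 were below every OVX + v library, with library 11 (7937 CPM) above OVX + v library 10 (7497 CPM). The log2 fold change was -0.55 ± 0.0806 (SE, edgeR), against a median of -0.06 over all genes tested. The SE depended on the fit. It was 0.134 with DESeq2 (log2 fold change -0.57) and 0.152 with edgeR on genes with at least 10 counts in every library. *S100b* was the 1 of 10 members inside the adjusted threshold of 0.05 by edgeR, where 0.0584% of the 13695 genes tested were, and nothing is read from this since the choice of the family fixed it. The 9 members outside the threshold included *S100a10* (-0.53 ± 0.847 SE, log2) and *S100a13* (-0.36 ± 0.387), whose errors were as large as the differences. *S100a1* (0.06 ± 0.163) was level between the groups within its error, and its sign turned with TMM factors (-0.05). Among the marker lists, the Schwann cell and myelin genes had summed levels of 3057 to 5392 CPM in the OVX + E2 libraries and 2252 to 4187 CPM in the OVX + v libraries, the fibroblast genes 947 to 1455 CPM and 932 to 1480 CPM, and the skeletal muscle genes 0.89 to 77 CPM and 0 to 227 CPM, so that each list overlapped between the groups. Their median log2 fold changes were 0.23 (10 of 19 tested genes higher), -0.46 (8 of 11 lower) and -2.80 (5 of 7 lower), with 0 genes called by edgeR, and their part in the level of *S100b* was not tested. In bulk tissue, fewer cells of a type and less RNA per cell cannot be told apart. The OVX + E2 libraries were also the shallowest, and the part of depth in the result was not tested.

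**Figure D2:**
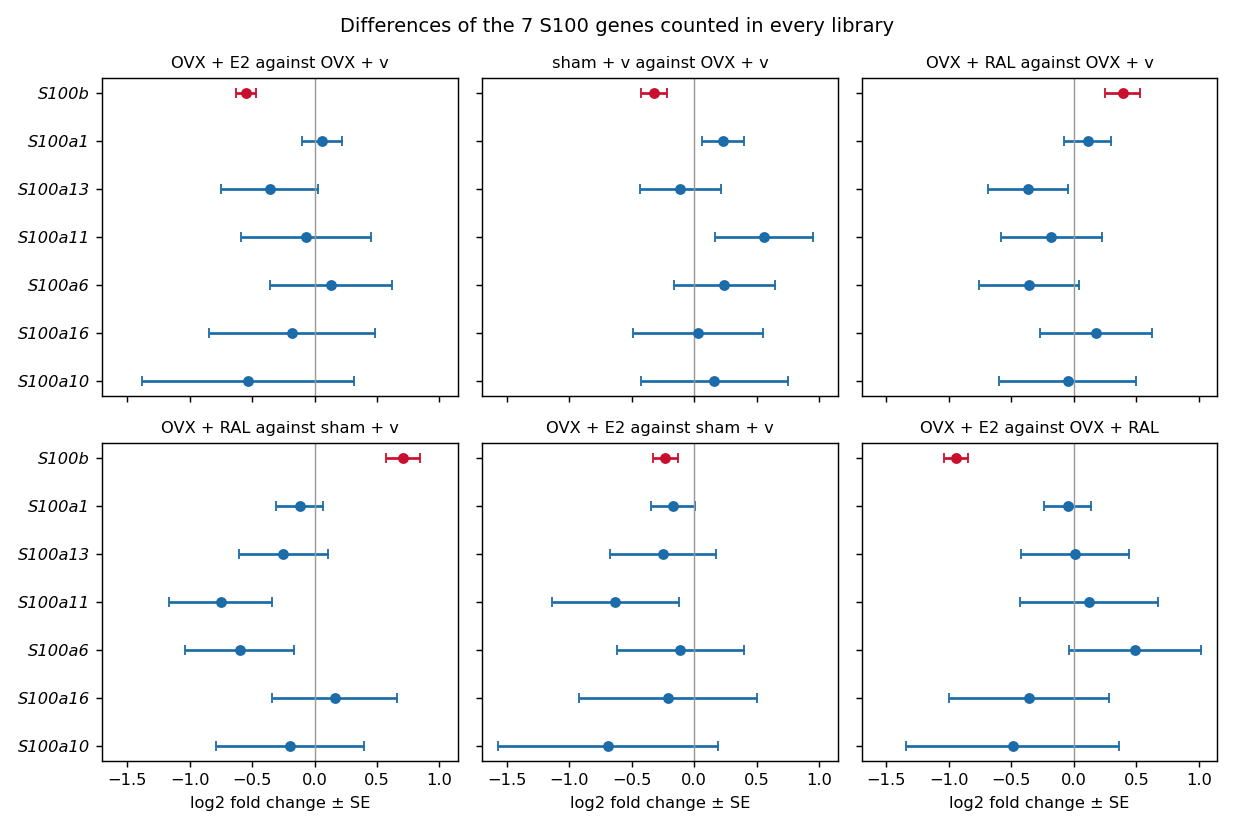
Log2 fold changes (horizontal axis) with their SE from edgeR for the 7 members counted in every library, in the 6 pairs of groups. Each panel gives the first group over the second and red marks *S100b*. In this fit the intervals of *S100b* are narrower than those of the other members. With DESeq2 or the robust fit, however, its SE in the OVX + RAL panels was 0.402 to 0.463. In the other panels its SE was 0.134 to 0.199 with DESeq2. The first panel is the comparison by which the family was chosen.

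Removal of the ovaries was examined in sham + v against OVX + v, which uses the same OVX + v libraries as the comparison above. The mean of *S100b* was 7340 ± 2428 CPM in the sham + v group (SD, n = 5) against 9141 CPM, a log2 fold change of -0.32 ± 0.104 (SE, edgeR). The SE was larger in other fits, at 0.199 with DESeq2 and 0.186 with edgeR on genes with at least 10 counts in every library. Of the 5 sham + v libraries, 3 were below every OVX + v library and library 1 was above every one, so the groups overlapped on both sides. Without library 1 the log2 fold change was -0.53. Since the OVX + v libraries entered the choice of *S100b*, no test of it is given here. Of the 9 other members, 0 passed the threshold by edgeR, DESeq2 or limma, where 0.0145% of 13825 genes did by edgeR, and 1 had an unadjusted p under 0.05 by edgeR, 2 by DESeq2 and 1 by limma. Such unadjusted counts are read against all genes tested, of which 12.1% to 14.2% in the 6 pairs had a p under 0.05 by edgeR, 5.59% to 6.49% by DESeq2 and 4.21% to 5.69% by limma. In the pairs where the other members were tested, those that edgeR counted so were *S100a4*, *S100a8* and *S100a9*, each at 0 or at 2 counts in all in 1 of the groups compared. *S100a11* had 224, 233, 170, 289 and 218 CPM in the sham + v libraries and 112, 189, 183, 152 and 131 CPM in the OVX + v libraries. Library 3 alone of the sham + v group reached down into the OVX + v range. The log2 fold change of *S100a11* was 0.56 ± 0.392 (SE), with a 95% interval of -0.20 to 1.33 and an adjusted p of 0.865 by edgeR. *S100a1* had 2017 ± 312 CPM in sham + v and 1721 ± 156 CPM in OVX + v (SD, n = 5 each), a log2 fold change of 0.23 ± 0.17 (SE) with an interval of -0.10 to 0.56 and an adjusted p of 0.934 by edgeR. Neither difference was larger than the spread between libraries by this test.

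Raloxifene was examined in OVX + RAL against OVX + v. *S100b* had a mean of 11990 ± 7192 CPM in the OVX + RAL group (SD, n = 5), and the log2 fold change was 0.39 ± 0.14 (SE, edgeR). The SE depended on the fit: it was 0.402 with the robust form of the edgeR fit and 0.413 with DESeq2 (log2 fold change 0.44), as large as the difference, and limma on log2(CPM + 1) gave 0.18 ± 0.104. Of the 5 OVX + RAL libraries, 2 were above every OVX + v library and 2 below every one. The direction rested on libraries 16 and 17: without them the log2 fold change was -0.43, and the median of the group, 8408 CPM, was below the 9158 CPM of the OVX + v group. Of the 9 other members, 0 passed the threshold by edgeR, DESeq2 or limma, where 0.0286% of 14002 genes did by edgeR, and 2 had an unadjusted p under 0.05 by edgeR, 2 by DESeq2 and 1 by limma. The 6 of them counted in every library had log2 fold changes between -0.37 (*S100a13*) and 0.18 (*S100a16*). The 95% interval for *S100a1*, the most precise, was -0.26 to 0.48.

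The comparison of OVX + RAL with sham + v used no library from the choice of the family, and *S100b* was tested there. By edgeR its log2 fold change was 0.71 ± 0.137 (SE) with an adjusted p of 0.00105, where 0.0648% of the 13883 genes tested passed. The groups nevertheless overlapped: 2 of 5 OVX + RAL libraries were above every sham + v library, and the other three lay among them. In a two-sided exact permutation test over every grouping of these libraries into 5 and 5, the difference of mean log2(CPM + 1) was 0.55 with p = 0.246, where the smallest p possible is 0.00794. Without libraries 16 and 17 the log2 fold change was -0.11. The SE was 0.443 with the robust edgeR fit and 0.463 with DESeq2. By edgeR and the other tools, 13 of 19 alternative settings kept the call, and the adjusted p ranged from 5.9e-14 to 1. Most of the 13 were the same edgeR fit with 1 library left out. The call was lost with DESeq2, limma on log2(CPM + 0.1), the robust edgeR fit and without library 17. It was also lost with edgeR's filterByExpr and with genes of at least 10 counts in every library. The difference was thus not larger than the spread between libraries by the permutation test. Libraries 16 and 17 also carried more skeletal muscle mRNA than the others, with 453 and 405 CPM summed over 8 muscle genes against 0 to 227 CPM in the other 18 libraries. Their summed melanocyte genes, at 1671 and 1385 CPM, were above the median of 781 CPM of the other 18 libraries. They were toward the upper end of the range of those libraries, 375 to 1697 CPM. The Schwann cell and myelin genes of libraries 16 and 17, at 2320 and 2845 CPM, were below the median of 3380 CPM, near the low end of 2252 to 5465 CPM. The part of these tissues in the level of *S100b* was not tested.

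Among the other members in OVX + RAL against sham + v, 0 of 9 passed the threshold by edgeR, DESeq2 or limma, and 0 had an unadjusted p under 0.05 by edgeR, 1 by DESeq2 and 1 by limma. *S100a11* had 46.8, 139, 198, 94.4 and 197 CPM in the OVX + RAL libraries against 170 to 289 CPM in sham + v. Of the 5 OVX + RAL libraries, 3 were below every sham + v library. The log2 fold change was -0.75 ± 0.413 (SE), with a 95% interval of -1.55 to 0.06 and an adjusted p of 0.525 by edgeR. *S100a6* had 147, 98.6, 113, 155 and 114 CPM in OVX + RAL and, in sham + v, 76 and 64.6 CPM in libraries 1 and 2 and up to 285 CPM in libraries 3 to 5. The sham + v libraries thus lay on both sides of the OVX + RAL range. The log2 fold change of *S100a6* was -0.60 ± 0.436 (SE), with an adjusted p of 0.883 by edgeR.

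Estradiol-treated mice were also set against intact mice and against raloxifene-treated mice, with the same OVX + E2 libraries that entered the choice of *S100b*. Against sham + v, *S100b* had a log2 fold change of -0.23 ± 0.0966 (SE, edgeR) in OVX + E2, and -0.01 without sham + v library 1. The SE was 0.198 with DESeq2 (log2 fold change -0.24) and 0.207 with edgeR on genes with at least 10 counts in every library. Against OVX + RAL the log2 fold change of *S100b* was -0.94 by edgeR, and -0.12 without libraries 16 and 17. Its SE was 0.0958 by edgeR, 0.414 by the robust edgeR fit and 0.429 by DESeq2 (log2 fold change -0.99). Against sham + v, 0 of the 9 other members passed the threshold by edgeR, DESeq2 or limma, where 0.0222% of 13501 genes did by edgeR, and 2 had an unadjusted p under 0.05 by edgeR, 1 by DESeq2 and 0 by limma. Against OVX + RAL, 0 of the 8 other members tested passed by edgeR, DESeq2 or limma, where 0.0727% of 13753 genes did by edgeR, and 1 had an unadjusted p under 0.05 by edgeR, 0 by DESeq2 and 0 by limma. The 6 members counted in every library had log2 fold changes from -0.69 (*S100a10*) to -0.11 (*S100a6*) against sham + v, and from -0.49 (*S100a10*) to 0.49 (*S100a6*) against OVX + RAL. For *S100a10* the values were 67, 15.1, 82.6, 3.56 and 122 CPM in OVX + E2, as scattered as in OVX + v with 108, 132, 3.4, 83.7 and 94.1 CPM, so that its interval against sham + v ran from -2.41 to 1.03. With TMM factors in place of total counts, the median of all genes moved by -0.11 in OVX + E2 against OVX + v and by -0.14 against OVX + RAL, and by less than 0.1 in the other 4 pairs. The signs of *S100a11* (0.12 to -0.01) and *S100a13* (0.01 to -0.15) in OVX + E2 against OVX + RAL turned with it, as did those of *S100a10* in OVX + RAL against OVX + v (-0.05 to 0.02) and of *S100a16* in sham + v against OVX + v (0.03 to -0.02).

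For the 2 most abundant of the other members, the libraries of each group ranged more widely than the 4 group means. *S100a1* had 2233, 2335, 1851, 1563 and 2103 CPM in sham + v, 1803, 1789, 1579, 1899 and 1536 CPM in OVX + v, 1770, 1664, 1784, 1575 and 2158 CPM in OVX + E2, and 1233, 1707, 2577, 1716 and 2049 CPM in OVX + RAL. Its lowest and highest libraries, 16 and 18, were both in the OVX + RAL group, and library 16 was also among the 2 highest for *S100b*. *S100a13* had 176, 260, 351, 270 and 334 CPM in sham + v, 320, 364, 265, 424 and 128 CPM in OVX + v, 250, 99.7, 322, 298 and 203 CPM in OVX + E2, and 316, 228, 198, 201 and 221 CPM in OVX + RAL. Its lowest libraries, 12 and 10, were in different groups and all 4 groups overlapped. For *S100a16*, means of 109 ± 54 CPM in sham + v, 107 ± 40.6 CPM in OVX + v, 94.5 ± 50.8 CPM in OVX + E2 and 121 ± 36.3 CPM in OVX + RAL (SD, n = 5 each) lay closer together than the libraries of any one group.

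**Figure D3:**
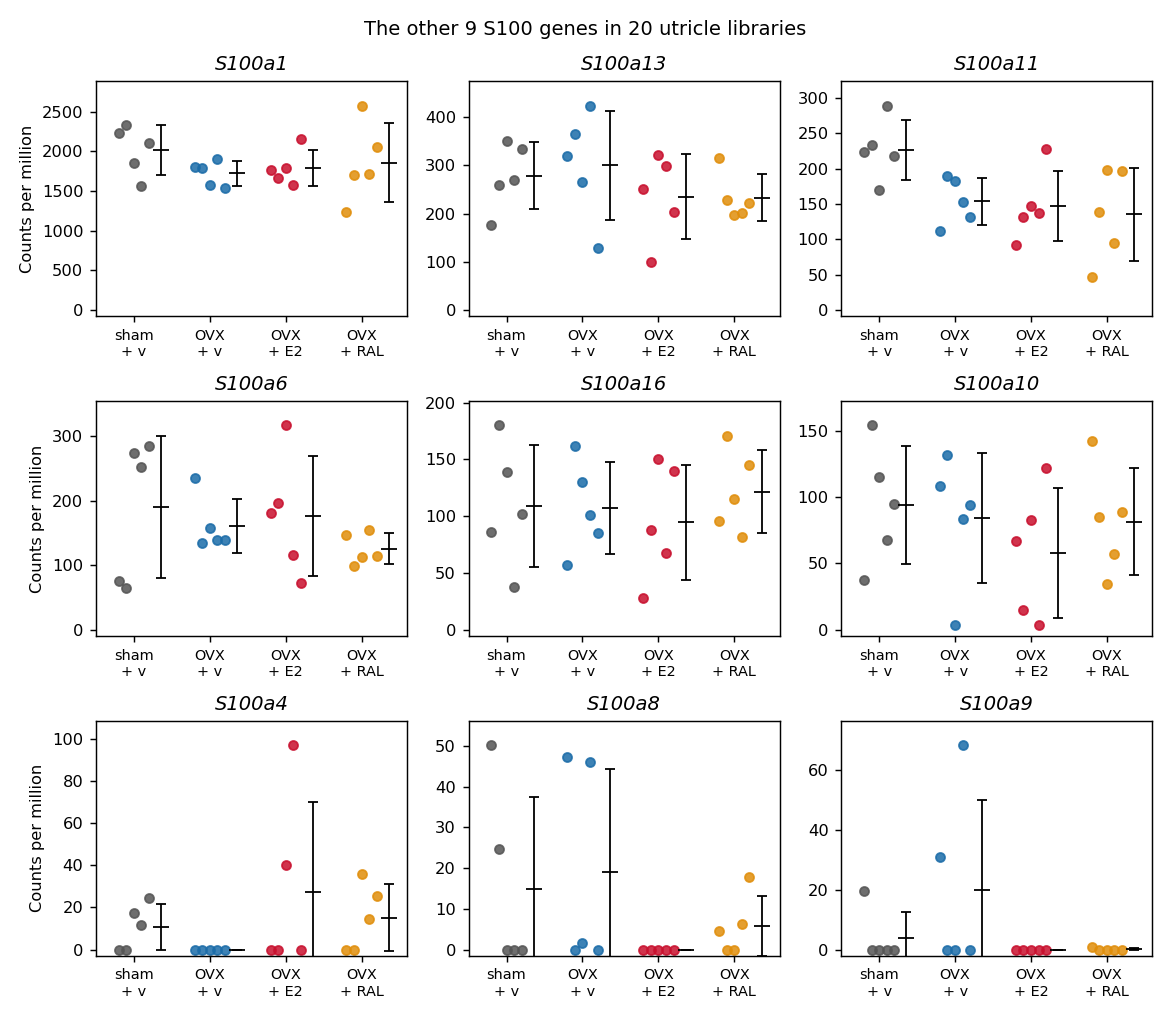
CPM (vertical axes, linear, each with its own range) of the 9 other members in the 20 libraries, by group. Points are libraries in the order of their numbers and black bars are the mean ± SD of 5 libraries. The groups overlap in every panel of the 6 members counted throughout, and *S100a4*, *S100a8* and *S100a9* are high in a few libraries and at 0 in most.

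The 3 remaining members were present in some libraries and absent from others at this depth. *S100a8* had 3 counts or more in 8 libraries: 103 and 47 counts in sham + v libraries 1 and 2, 76, 3 and 93 counts in OVX + v libraries 6, 8 and 9, and 9, 12 and 37 counts in OVX + RAL libraries 16, 19 and 20. *S100a9* had 40, 50 and 138 counts in libraries 1, 6 and 9, all of which held *S100a8*, and 2 counts in library 16. Both calprotectin genes were at 0 in all 5 OVX + E2 libraries, which allows up to 2.29 CPM each on average at 3 counts per library. Against this floor *S100a8* was at least 6.54-fold lower in OVX + E2 than in sham + v (mean 15 CPM) and at least 2.51-fold lower than in OVX + RAL (mean 5.74 CPM), and *S100a9* was at least 1.7-fold lower than in sham + v (mean 3.9 CPM). These limits rested on single libraries: the first was 2.7-fold without sham + v library 1, the second 1.19-fold without OVX + RAL library 20, and the third could not be given without sham + v library 1. With edgeR these differences had adjusted p of 0.347, 0.353 and 0.347 and none passed the threshold, and 3, 2 and 4 of the 5 libraries of the other group were themselves at 0.

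Other neutrophil genes were found in most of the libraries with *S100a8*. At least 3 counts over a list of 12 neutrophil genes were present in 7 of the 8 libraries with *S100a8* and in 4 of the other 12, with a summed level of up to 105 CPM in library 9. They came from 7, 4, 3 and 3 listed genes in libraries 1, 6, 9 and 16. In library 20 they came from 2 genes, and in libraries 8 and 19 from 1 each. Library 2, with 47 counts of *S100a8*, had none. *Ltf* (mean 8.68 CPM), *Mmp9* (5.07 CPM) and *Ngp* (3.51 CPM) were the highest, encoding the granule proteins lactoferrin, gelatinase and neutrophilic granule protein. *Mpo*, *Elane* and *Mmp8*, which encode proteins of neutrophil granules, were at 0 in all 20 libraries, and *Ly6g* had 1 count in all. In the OVX + E2 group the list reached 43.5 CPM in library 15 and was at 0.89 CPM or less in the other four. In OVX + v it lay between 0 and 105 CPM, in sham + v between 0 and 94.5 CPM and in OVX + RAL between 0 and 62.4 CPM. The part of blood cells in the calprotectin genes was not tested.

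*S100a4*, a member of fibroblasts and motile cells that binds non-muscle myosin, followed other libraries. It had 29, 21 and 37 counts in sham + v libraries 3 to 5, 50 and 109 counts in OVX + E2 libraries 13 and 14, and 61, 28 and 53 counts in OVX + RAL libraries 18 to 20, and was at 0 in the other 12, all 5 OVX + v libraries among them. Against the floor of 1.81 CPM in OVX + v, it was at least 5.92-fold higher in sham + v (mean 10.7 CPM) and at least 8.42-fold higher in OVX + RAL (mean 15.2 CPM), with adjusted p of 0.363 and 0.402 by edgeR. The second limit was 5.56-fold without OVX + RAL library 18. Neither passed the threshold, and 2 of 5 libraries were at 0 in each of these groups. Libraries with *S100a4* and those with *S100a8* had 2 in common, 19 and 20.

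Of 8 further genes named as S100 genes in the tables, 5 (*S100a2*, *S100a3*, *S100a5*, *S100a7l2* and *S100z*) were at 0 in every library. *S100a14* had 171 counts in 8 libraries, with at most 53 in one. *S100a7a* had 36 counts in library 4, and *S100g*, which encodes calbindin-D9k of intestinal calcium transport, had 31 in library 3, with 0 in the others.

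The proteins that S100 members are known to act on were examined as a list of 29 partners and receptors. Its most abundant genes were *Sod1*, a superoxide dismutase, at 928 ± 158 CPM, the annexin *Anxa5* at 522 ± 159 CPM, and *Ahnak*, a scaffold bound by the S100a10-annexin A2 complex, at 332 ± 91 CPM (SD, n = 20 each). The summed level of the list was 3081 to 4162 CPM per library, and did not follow *S100b* (Pearson's r = 0.01 over 20 libraries, which were prepared alike and differ in depth, and -0.11 without libraries 16 and 17). *Il1a*, *Trpv5* and *Scn10a* were at 0 throughout. In the 6 pairs of groups, 21 to 25 of the 29 genes were tested and 0 passed the threshold by edgeR, DESeq2 or limma in either direction, with 2 to 4 having an unadjusted p under 0.05 by edgeR and 0 to 2 by the other tools. The median log2 fold change of the list was -0.26 in OVX + E2, -0.21 in sham + v and -0.11 in OVX + RAL against OVX + v, where those of all genes were -0.06, -0.02 and -0.03. It was 0.10 in OVX + RAL and -0.06 in OVX + E2 against sham + v, and -0.16 in OVX + E2 against OVX + RAL, where those of all genes were -0.02, -0.03 and -0.01.

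A list of 28 other EF-hand genes outside the S100 family did not follow *S100b* either. The myosin light chain *Myl6* (826 ± 185 CPM) and the calmodulin gene *Calm2* (765 ± 149 CPM) were among the highest (SD, n = 20 each), both below *S100a1* in mean level. The sum was 3619 to 5657 CPM per library, with r = 0.04 to *S100b* (n = 20, and 0.08 without libraries 16 and 17), and *Rcvrn* and *Necab2* were at 0. Of the 24 genes tested in each pair, 0 passed the threshold by edgeR, DESeq2 or limma in either direction, and 2 or 3 had an unadjusted p under 0.05 by edgeR and 0 to 2 by the other tools. The medians lay between -0.06 and 0.14.

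The members did not move as one. Over the 20 libraries, log2(CPM + 1) of *S100b* had Pearson's r between -0.44 (*S100a11*) and 0.14 (*S100a10*) with the 6 other members counted throughout. Without libraries 16 and 17 these lay between -0.18 (*S100a16*) and 0.14 (*S100a1*), and the value for *S100a11* was -0.04. Among all 21 pairs of the 7 members, r ran from -0.44 to 0.64, the highest between *S100a1* and *S100a11*. All the libraries of a group share its treatment and all share a scale set by their totals, and these values are descriptions.

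The genes most like *S100b* over the 20 libraries were *Apod* (r = 0.87), *Ptgds* (0.79), *Dbi* (0.77), *Otos* (0.77) and *Cald1* (0.75), out of 2232 genes with at least 10 counts in every library and with a median r of -0.02. *Apod* encodes a lipid carrier, *Ptgds* a prostaglandin D synthase that also carries lipids, *Dbi* an acyl-CoA-binding protein, *Otos* otospiralin of inner ear fibrocytes and *Cald1* caldesmon. Without libraries 16 and 17, *Ptgds* (0.87) and *Apod* (0.81) were the 2 genes most like *S100b*, and without library 1 as well their r was 0.86 and 0.76 (n = 17). For deviations from the group means *Apod* stayed first (0.84) and *Ptgds* ranked 7 (0.75). The other three had lower r without libraries 16 and 17, at 0.42 for *Dbi*, 0.56 for *Otos* and 0.48 for *Cald1*. *Apod* had 20503 CPM in library 16, 12532 CPM in library 17 and 14264 CPM in library 1, the 3 highest of its range of 7008 to 20503 CPM. *Ptgds* had 81412, 52721 and 85939 CPM in the same libraries, of which library 17, the highest for *S100b*, was near its mean of 49818 CPM.

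The Schwann cell and myelin genes, in contrast, ran against *S100b*. Their summed level had r = -0.53 with it, and *Mbp*, which encodes myelin basic protein and was among the highest of the list (mean 670 CPM), had r = -0.55. The summed levels of fibroblast genes, led by *Dcn* (749 CPM), *Col1a2* (211 CPM) and *Pdgfra* (91.4 CPM), had r = 0.66, skeletal muscle genes led by *Myh4*, *Tnnc2* and *Acta1* 0.74, melanocyte genes led by *Dct* (765 CPM), *Pmel* and *Mlana* 0.48, and macrophage genes led by *Lyz2*, *C1qc* and *C1qb* 0.46. Hair cell genes (*Myo6*, *Pou4f3* and *Gfi1*) had -0.20, supporting cell genes -0.14 and neutrophil genes 0.14. The r of a sum need not be that of its genes. Among fibroblast genes it was 0.64 for *Dcn*, 0.38 for *Col1a2* and 0.07 for *Pdgfra*. Among melanocyte genes it was 0.50 for *Dct*, 0.34 for *Pmel* and 0.17 for *Mlana*, and among macrophage genes 0.18 for *Lyz2*, 0.45 for *C1qc* and 0.13 for *C1qb*. Skeletal muscle genes had 0.82 for *Myh4*, 0.58 for *Tnnc2* and 0.74 for *Acta1*, and hair cell genes -0.26 for *Myo6*, -0.42 for *Pou4f3* and 0.17 for *Gfi1*. The leading supporting cell genes went opposite ways, with -0.49 for *Otog*, 0.64 for *Gjb6* and 0.50 for *Gjb2*. Several of these values moved without libraries 16 and 17 (n = 18), to -0.41 for the Schwann cell and myelin genes, 0.60 for fibroblast, 0.65 for skeletal muscle, 0.23 for melanocyte and 0.63 for macrophage genes. The signs for hair cell (0.04) and supporting cell genes (0.14) turned, and neutrophil genes had 0.25. Without library 1 as well (n = 17) they were -0.30, 0.46, 0.61, 0.13 and 0.50 for the first 5 of these lists. The melanocyte gene *Oca2* was at 0 in all libraries. In the 6 pairs of groups, 0 genes of these 8 lists passed the threshold by edgeR or by limma, with 0 to 5 genes of a list at an unadjusted p under 0.05 by edgeR and 0 to 3 by limma. DESeq2 called *Mbp* in OVX + E2 against OVX + RAL and *Myh4* in OVX + E2 against each of OVX + v and OVX + RAL, where DESeq2 called 0.305% of all genes fitted against OVX + RAL and 0.277% against OVX + v.

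**Figure D4:**
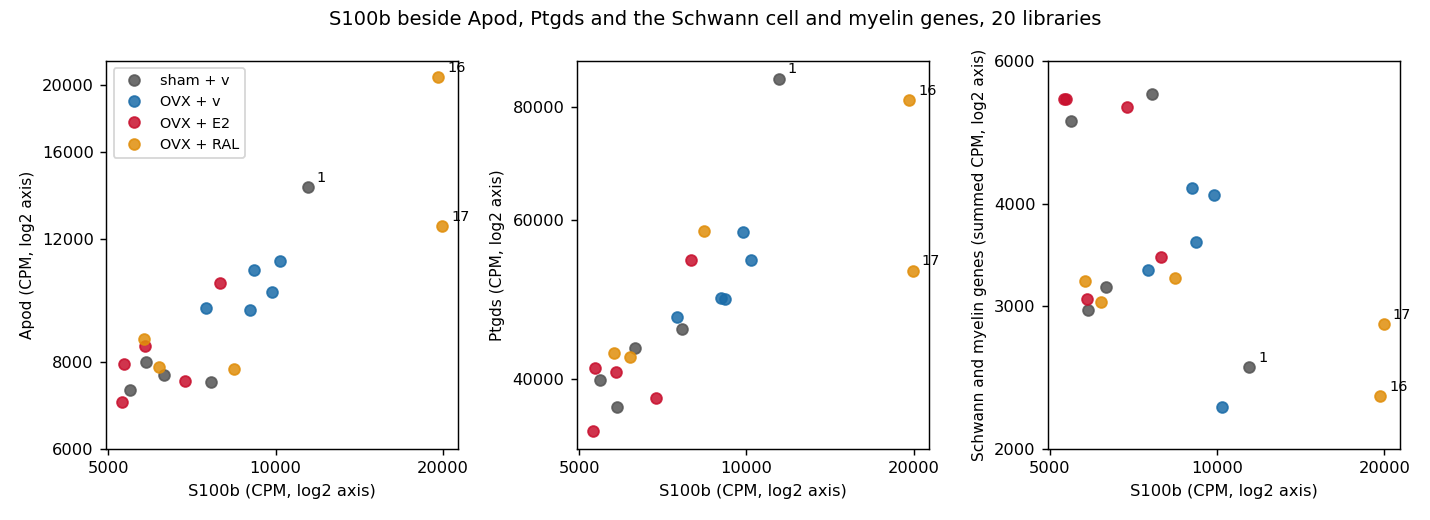
*S100b* (horizontal axes, CPM, log2) against *Apod*, *Ptgds* and the summed Schwann cell and myelin genes (vertical axes, CPM, log2) in the 20 libraries. Points are libraries coloured by group, with libraries 1, 16 and 17 numbered. *Apod* was highest in libraries 1, 16 and 17, *Ptgds* in libraries 1 and 16 but not in 17, and the Schwann cell and myelin sum was 2320 and 2845 CPM in libraries 16 and 17.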

How the data were processed

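RNA of the mouse utricle was sequenced in 20 libraries with a kit reading the 3′ ends of mRNA, from 1 ng of total RNA. As the study's methods describe, reads were trimmed by the authors (adaptors, poly(A), poor ends and the leading 12 nucleotides), kept at 20 nucleotides or longer, aligned to GRCm39 and assigned to genes in CLC Genomics Workbench. The deposited total counts are raw read counts per gene, not normalized. Treatment of strand and of reads matching several genes is not given in the sources used here. The deposited CPM, TPM, RPKM, fold changes and p-values of the authors' own comparisons were not used. 1 file holds 3 tables, of which 2 equal other tables, and the first was used.

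Groups follow the labels, with libraries numbered 1 to 20 as labelled. Of 40 replicate pairs within groups, 0 had identical counts. Each pair of groups was compared with the edgeR quasi-likelihood test on its 10 libraries, with the total count as library size, genes with at least 10 counts and Benjamini-Hochberg adjustment over all genes at a threshold of 0.05. SEs are the log2 fold change over the square root of F, and 95% intervals are normal. No p is printed for *S100b* where a group entered the choice of the family, nor for any member in OVX + E2 against OVX + v. Depth was 1123053 to 2081747 counts per library. Folds against groups at 0 are bounds at 3 counts per library.

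Members, lists and the rule for named genes were chosen with earlier results of these data known. The rule named all members, in each pair *S100b* and the 2 members with the largest changes, the 3 most abundant genes of each list, and the 5 genes most correlated with *S100b*. Further members were named where they bear on a sentence, and some items that the rule would name are not reported here. Lists held 20 Schwann cell and myelin, 10 melanocyte, 14 hair cell, 13 supporting cell, 12 neutrophil, 12 macrophage, 12 fibroblast and 8 skeletal muscle genes, 29 S100 partners and 28 EF-hand genes. Alternatives were TMM, DESeq2, 3 filters, limma with a pseudocount of 1 or of 0.1 CPM, robust fits, all libraries in 1 fit and each library left out. The fits were tested on simulated data. Sequences were read from GENCODE vM39 on GRCm39, and windows of 63 nucleotides of the last 400 of each member's transcript were searched with BLAST. R 4.3.3, edgeR 4.0.16, limma 3.58.1, DESeq2 1.42.0, Python 3.11.15, scipy 1.17.1 and pandas 2.3.3 were used.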

Additional observations from a re-analysis of the deposited data

Results flagged for a closer look

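Within the groups of 5 libraries, 37 sets of values of the members were examined for a single library far from the others, and 4 were found. With continuous values about 1 in 20 sets meets this limit by chance, but the 2 sets of *S100a9* hold 4 libraries at 0 and meet it whatever the value of the fifth. *S100a6* in OVX + v library 6 had 235 CPM against 134 to 158 CPM in the other four. *S100a13* in OVX + RAL library 16 had 316 CPM against 198 to 228 CPM in the other four. *S100a9* had 19.5 CPM in sham + v library 1 and 1.03 CPM, which is 2 counts, in OVX + RAL library 16, with 0 in the other libraries of each group.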

How the results depend on the processing

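Counts of members past the threshold moved with the setting. The member counted was *S100b* throughout, and in every pair but OVX + RAL against sham + v its groups entered the choice of the family, so nothing is read from those counts. In OVX + E2 against OVX + v, 1 passed, and 0 with edgeR's filterByExpr or at least 10 counts in every library. In sham + v against OVX + v, 0 passed, 1 by limma on log2(CPM + 1), and 0 to 1 with single libraries left out (1 without sham + v library 1). In OVX + RAL against OVX + v, 0 passed, 1 with all 20 libraries in 1 fit, and 0 to 1 with single libraries left out (1 without library 20). In OVX + RAL against sham + v, 1 passed, 0 with DESeq2, either stricter filter, limma on log2(CPM + 0.1), the robust fit or without libraries 16 and 17 (chosen after seeing the data), and 0 to 1 with single libraries left out (0 without library 17). In OVX + E2 against OVX + RAL, 1 passed, and 0 with DESeq2, either stricter filter, limma on log2(CPM + 0.1), the robust fit or without libraries 16 and 17. *S100b* in OVX + RAL against sham + v had 0.77 with DESeq2, 0.71 with filterByExpr, with at least 10 counts in every library and with the robust fit, and 0.55 with limma on log2(CPM + 0.1) and in the permutation test, all not called, 0.45 to 0.92 with single libraries left out (0.45 and not called without library 17), and -0.11 without libraries 16 and 17. Beside 5 signs near 0 that turned with TMM factors and are given with the results, reversed were *S100b* in OVX + RAL against OVX + v (-0.43 without libraries 16 and 17), *S100a8* in OVX + RAL against sham + v (0.42 by limma on log2(CPM + 0.1)) and *S100a4* in OVX + E2 against OVX + RAL (-0.38 by limma on log2(CPM + 1), -1.02 on log2(CPM + 0.1), and -0.60 to 1.44 with single libraries left out, below 0 without OVX + E2 library 14). Both stricter filters left fewer genes, and for the other settings the cause was not tested. No paired analysis was possible because the groups share no replicate numbers. *S100a4*, *S100a8* and *S100a9* rest on few counts in few libraries.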
